A study of Homo sapiens with 6 samples.

Results

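Transcripts of 258 expressed ZNF zinc finger genes were followed in HEK293A cells given a compound known by its code name, VT01454. The members were the genes whose symbol is ZNF followed by digits alone and whose mean over all 6 libraries was at least 10 CPM (the count scaled to a library total of 1000000). In all, 258 of the 477 ZNF symbols among 60676 gene IDs met both conditions. The members were thus chosen by their measured level averaged over both groups, and the difference between the groups played no part. Just inside the threshold lay ZNF782, ZNF597 and ZNF559, at a mean of 10.3, 10.2 and 10.2 CPM, and just outside it ZNF225, ZNF449 and ZNF250, at 9.68, 9.63 and 9.55 CPM.

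HEK293A is an adherent derivative of a human embryonic kidney cell line. The groups were 3 samples given 20 nM VT01454 for 2 h and 3 given the DMSO vehicle, and the labels name no gene edit or other agent in either group. The title of the series names the Hippo pathway, phosphoinositides and their transfer protein, and the contrast asks which transcripts differ after treatment. All cells are of 1 line. Whether a group's 3 samples were grown separately is not labelled, and the spread behind each p-value may therefore be technical.

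C2H2 zinc finger proteins form the largest class of human transcription factors. Each finger is a short fold in which a pair of cysteines and a pair of histidines hold a zinc ion, and arrays of fingers read DNA. More than one family is covered by the ZNF symbol. In many of them a KRAB box at the start of the protein recruits TRIM28 (KAP1), which brings in the histone H3K9 methyltransferase SETDB1 and HP1 proteins, and this silences transposable elements and other targets. Others lack the box and act as activators, as co-repressor scaffolds, or on RNA, ribosomes and protein modification. Many KRAB genes lie in clusters on chromosome 19, where they arose by duplication.

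The 3 VT01454 libraries held 24646466 to 28880374 counts and the 3 vehicle libraries 19126039 to 26879796. The lowest count of any member in any library was 163, and all 258 passed the filter on low counts. Over the members, chi-square per degree of freedom was 1.63 to 1.99 between pairs of VT01454 libraries and 4.37 to 11.6 between pairs of vehicle libraries. The vehicle libraries varied more among themselves, and vehicle libraries 2 and 3 stood furthest apart. Of 11 markers listed for HEK293A, 7 had a mean of at least 1 CPM, led by the keratin gene KRT8, the neurofilament gene NEFL and the vimentin gene VIM at 942, 678 and 288 CPM, while the kidney factors PAX2, PAX8 and LHX1 were below 0.5 CPM. The leukocyte genes PTPRC and CD3E were at 0 and the squamous markers KRT5, KRT14 and TP63 were below 0.1 CPM. The 5 fibroblast markers summed to 25.2 to 36.1 CPM in VT01454 libraries and to 27.9 to 41.2 CPM in vehicle libraries, most of it COL1A1, and the part of these transcripts in any result was not tested.

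The members were an AT-rich, chromosome 19 heavy group of finger arrays. Of the 258, 117 (45.3%) lay on chromosome 19, against 5.27% of the 9133 other tested genes with a mean of at least 10 CPM. Chromosomes 7 and 16 followed with 21 and 19. Their longest annotated transcripts had a median GC content of 43.4%, against 47.1% in the other genes, and a median exonic length of 6030 bases, against 5476. A search of the translated GENCODE 29 coding sequences for C2H2 fingers (C, 2 to 4 residues, C, 12 residues, H, 3 to 5 residues, H) gave a median of 10 fingers per protein and a range of 0 to 34. ZNF462 had 34 and ZNF91 had 32. The 5 proteins with none by this pattern were ZNF503, ZNF703, ZNF738, ZNF839 and ZNF330. A KRAB box pattern was found in 153 members and not found in 105. The KRAB group had a median of 12 fingers and a GC content of 42.05%, with 95 of its genes on chromosome 19, while the group without the pattern had a median of 8 fingers and a GC content of 51.4%, with 22 on chromosome 19. The pattern misses diverged or unannotated boxes, so the second group holds some KRAB relatives.

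Transcripts of duplicated genes can share reads. In 93 members no 50-base word of the longest transcript occurred in an annotated transcript of another gene, and in 24 members at least 10% of the words did. The highest shares, 99.5% in ZNF320 and 99.2% in ZNF468, were with each other, and 78.5% and 53.3% of their exons overlap another gene on the same strand. ZNF417 shared 40.1% of its words, chiefly with its near copy ZNF587. How the authors' counting treated reads with several positions and the strand is not given in the sources used here, and values of such members are uncertain.

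Promoters of the members often carried a short core recognised by ETS factors, a family that includes nuclear targets of ERK signalling. The 250 bases upstream of the first listed RefSeq start (GRCh38.p14) were available for 228 members. The 7 letters CCGGAAG, read on both strands (CTTCCGG on the other), were present in 76 of these promoters (33.3%), against 8.82% of all 27305 promoters of the same length and 17.6% of those of the other genes with at least 10 CPM. The 9 letters ACTACAATT (AATTGTAGT on the other strand), part of the site bound by ZNF143, were in 6 member promoters (2.63%), against 0.355% of all promoters and 0.709% of those of the other genes with at least 10 CPM. The EGR letters GCGTGGGCG (CGCCCACGC on the other strand) were in 2 member promoters (0.877%), against 0.711% of all and 1.23% of those of the other expressed genes. The cAMP response element TGACGTCA, the same on both strands, was in 8 member promoters (3.51%), against 1.77% of all and 3.25% of those of the other expressed genes. Matches to different motifs overlapped in 0 of the 27305 promoters. The promoters below are shown because ZNF254 is the one changed member with an ETS match, ZNF644 is the most strongly supported change and has none of the motifs, and ZNF180 and ZNF277 hold both the ETS and the ZNF143 letters. Each is written 5′ to 3′ on the strand of its gene, in lower case, with matches in capitals.
ZNF254 (chr19:24086937-24087186, plus strand): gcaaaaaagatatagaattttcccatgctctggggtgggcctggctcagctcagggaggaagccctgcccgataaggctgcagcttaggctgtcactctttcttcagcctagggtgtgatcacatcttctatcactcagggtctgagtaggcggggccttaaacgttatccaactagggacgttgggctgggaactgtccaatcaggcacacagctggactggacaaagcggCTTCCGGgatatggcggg
ZNF644 (chr1:91022036-91022285, minus strand): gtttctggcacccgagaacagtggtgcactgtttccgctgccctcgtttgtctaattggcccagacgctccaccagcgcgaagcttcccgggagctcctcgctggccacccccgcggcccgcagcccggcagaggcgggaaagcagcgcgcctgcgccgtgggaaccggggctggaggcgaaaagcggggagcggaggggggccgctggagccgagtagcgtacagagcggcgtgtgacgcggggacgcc
ZNF180 (chr19:44500523-44500772, minus strand): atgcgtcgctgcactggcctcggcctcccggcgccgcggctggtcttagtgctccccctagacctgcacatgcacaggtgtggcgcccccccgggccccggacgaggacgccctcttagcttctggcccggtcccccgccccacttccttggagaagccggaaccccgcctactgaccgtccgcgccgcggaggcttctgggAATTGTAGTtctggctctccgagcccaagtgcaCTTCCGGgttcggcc
ZNF277 (chr7:112206445-112206694, plus strand): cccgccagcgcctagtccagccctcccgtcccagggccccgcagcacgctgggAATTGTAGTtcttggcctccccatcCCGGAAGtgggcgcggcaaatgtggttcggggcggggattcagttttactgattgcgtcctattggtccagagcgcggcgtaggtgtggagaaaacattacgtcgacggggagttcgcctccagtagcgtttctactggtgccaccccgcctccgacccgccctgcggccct
The capitals mark places where the letters occur and not sites shown to be bound. Members with the ETS letters had a median log2 fold change of 0.017 and those without 0.0013, and 1 of the 7 changed members had them.

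After 2 h with VT01454 nearly all of these transcripts stayed close to their vehicle levels. In edgeR's quasi-likelihood test with Benjamini-Hochberg adjustment over all 15577 tested genes, 5 members rose and 2 fell at an adjusted p below 0.05, and 251 did not pass. That is 2.71% of members, beside 1.89% of all tested genes and 2.66% of the other genes with at least 10 CPM, so the share of members that changed was near the background. The risers were ZNF644, ZNF41, ZNF608, ZNF254 and ZNF503 (5 of 258, where 1.27% of all genes rose), and the genes that fell were ZNF589 and ZNF875 (2 of 258, where 0.616% fell). The log2 fold changes of the members ran from −0.51 to 0.61 with a median of 0.0013, beside −0.0073 for all tested genes and 0.0070 for the other genes with at least 10 CPM. Only ZNF41 had an estimate past 1.5-fold in either direction, and for 249 members the whole 95% interval lay within 1.5-fold either way. The median half-width of that interval was 0.19 on the log2 scale. In bulk RNA, fewer cells with a transcript and less of it per cell cannot be told apart.

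**Figure D1:**
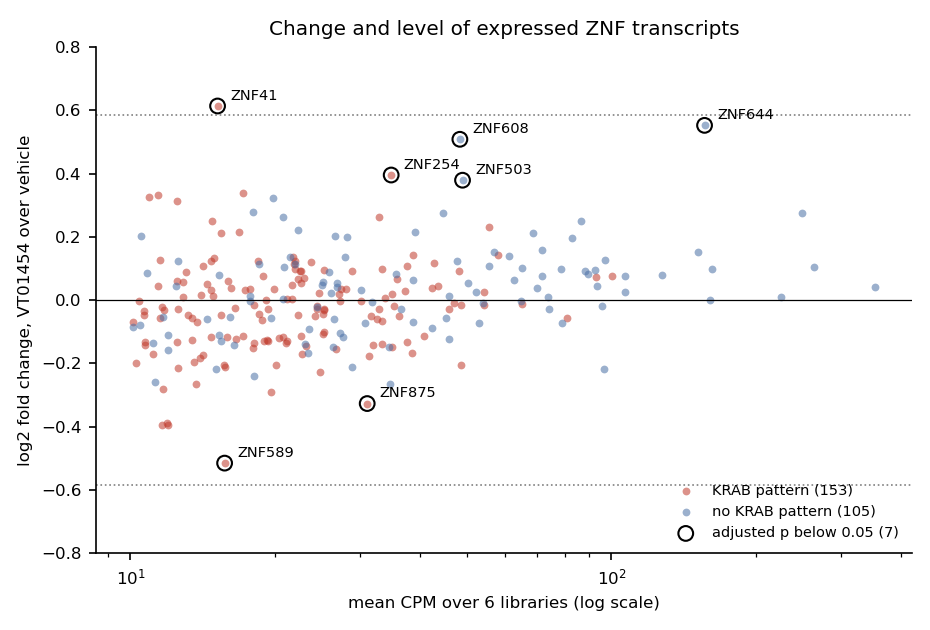
Log2 fold change of VT01454 over vehicle (vertical axis) against the mean CPM over 6 libraries (horizontal axis, log scale) for the 258 ZNF genes, coloured by the KRAB pattern, with the 7 that passed the test circled and dotted lines at 1.5-fold. The cloud is centred near 0, and ZNF41 is the one point beyond a dotted line.

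ZNF644, whose product works with the H3K9 methyltransferases EHMT1 and EHMT2, showed the clearest rise. It lies on chromosome 1 from 90915298 to 91022272 (hg38, GENCODE 29). It had 183, 187 and 189 CPM (TMM-scaled) in VT01454 libraries 1 to 3, against 128, 110.2 and 143 CPM in vehicle libraries 1 to 3. Every VT01454 library was above every vehicle library. The means of 186 ± 3.43 and 127 ± 16.2 CPM (SD, n = 3 libraries each) gave a 1.47-fold rise, with a log2 fold change of 0.55 ± 0.080 (SE, edgeR adjusted p = 0.00274). It passed without any single library except vehicle library 1 (adjusted p = 0.0625).

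ZNF41, an X-linked KRAB gene with 17 fingers (chromosome X, 47445879 to 47482946), was low and had the largest fold of the members. It stood at 18.6, 18.8 and 17.98 CPM in VT01454 libraries, against 11.7, 10.6 and 13.7 CPM in vehicle libraries. The groups did not overlap, and the VT01454 libraries lay within 1 CPM of each other. Its rise was 1.53-fold (log2 0.61 ± 0.10, edgeR adjusted p = 0.00672), and it did not pass with vehicle library 1 or VT01454 library 2 left out (adjusted p = 0.0896 and 0.0523).

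ZNF608 (chromosome 5, 124636913 to 124748807), a relative of ZNF609 with 1 finger by the pattern, had 57.5, 57.4 and 56.2 CPM in VT01454 libraries, against 42.7, 33.5 and 43.8 CPM in vehicle libraries. The rise was 1.42-fold (log2 0.51 ± 0.090, edgeR adjusted p = 0.0107). ZNF503, the gene of a NET family co-repressor (chromosome 10, 75397830 to 75401906), had 55.9, 55.6 and 55.1 CPM in VT01454 libraries, against 44.9, 45.2 and 38.2 CPM in vehicle libraries. That rise was 1.301-fold (log2 0.38 ± 0.075, edgeR adjusted p = 0.0223). In both genes the groups did not overlap, and the low vehicle library was library 2 for ZNF608 and library 3 for ZNF503. Exons of genes on the other strand cover 11.6% of the ZNF503 exons, so its count may include antisense reads.

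ZNF254, a KRAB gene with 13 fingers (chromosome 19, 24033405 to 24129961), had 38.8, 41.05 and 39.3 CPM in VT01454 libraries, against 28.3, 29.5 and 32.6 CPM in vehicle libraries. It rose 1.32-fold (log2 0.40 ± 0.075, edgeR adjusted p = 0.0165), and 10.1% of its 50-base words occur in transcripts of other genes. The groups did not overlap.

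The 2 members that fell both carry the KRAB pattern. ZNF589 (chromosome 3, 48241100 to 48299253) had 11.4, 13.6 and 13.9 CPM in VT01454 libraries, against 19.5, 16.6 and 19.2 CPM in vehicle libraries, and fell 1.43-fold (log2 −0.51 ± 0.10, edgeR adjusted p = 0.0227). ZNF875, formerly HKR1 (chromosome 19, 37312837 to 37369365), had 27.5, 27.6 and 27.6 CPM in VT01454 libraries, against 36.1, 32.8 and 34.8 CPM in vehicle libraries, and fell 1.25-fold (log2 −0.33 ± 0.070, edgeR adjusted p = 0.0335). Neither gene's groups overlapped. The calls of ZNF608, ZNF503, ZNF254, ZNF589 and ZNF875 were each lost without vehicle library 1 or any single VT01454 library, with adjusted p up to 0.0806, 0.143, 0.136, 0.185 and 0.216, while the direction held in every alternative.

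**Figure D2:**
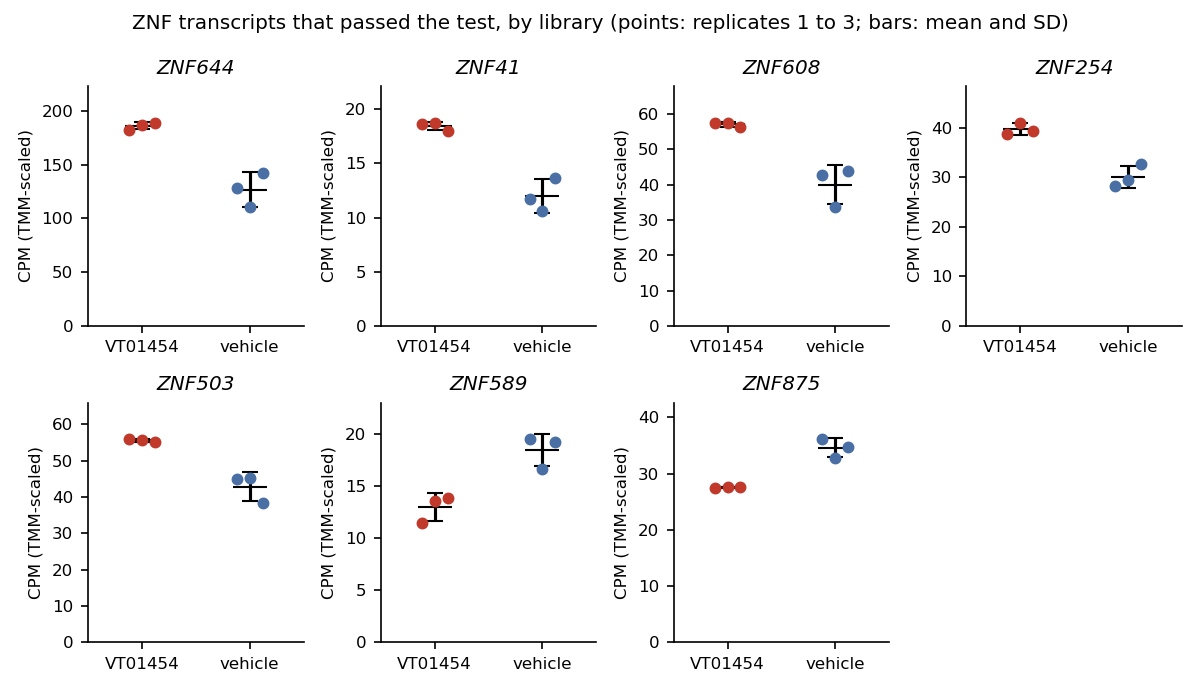
CPM (TMM-scaled, vertical axes from 0) of the 7 ZNF transcripts that passed the test, with 1 point per library, VT01454 left and vehicle right, and bars for the mean and SD of 3 libraries. In each panel the groups do not overlap, and in each the VT01454 points lie closer together than the vehicle points, as for ZNF875 at 27.5 to 27.6 CPM against 32.8 to 36.1 CPM.

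Between an adjusted p of 0.05 and 0.1 lay 5 more members, 3 higher and 2 lower, and the share of all tested genes there is not given. ZNF217, an oncogene whose product binds CtBP co-repressors, had 47.2, 49.5 and 50.1 CPM in VT01454 libraries, against 39.3, 40.6 and 41.3 CPM in vehicle libraries. Its groups did not overlap, and it stood at a log2 fold change of 0.28 ± 0.065 (edgeR adjusted p = 0.0501). DESeq2 called it (adjusted p = 0.0164). The other 2 higher were ZNF711, at 22.1 ± 0.682 CPM in VT01454 libraries and 17.6 ± 1.07 CPM in vehicle libraries (log2 0.32 ± 0.082, edgeR adjusted p = 0.0748), and ZNF184, at 19.2 ± 0.654 CPM in VT01454 libraries and 15.2 ± 1.34 CPM in vehicle libraries (log2 0.34 ± 0.090, edgeR adjusted p = 0.0915; SD, n = 3 each). In both the groups did not overlap. On the lower side ZNF586 had 11.1, 9.96 and 9.93 CPM in VT01454 libraries, against 13.6, 12.99 and 14.1 CPM in vehicle libraries (log2 −0.39 ± 0.095, edgeR adjusted p = 0.0595). ZNF181 stood at −0.39 ± 0.10 (edgeR adjusted p = 0.0924). Beyond 0.1, the lower member of next smallest p was ZNF622, which acts in maturation of the large ribosomal subunit, at −0.22 ± 0.066 (edgeR adjusted p = 0.138). Neither ZNF181 nor ZNF622 had overlapping groups. At an unadjusted p below 0.05 there were 41 members (15.9%), beside 14.4% of all tested genes. Groups did not overlap in 57 members, 30 above and 27 below vehicle (11.6% and 10.5%), beside 11.3% and 9.84% of all tested genes. Scaled by library size alone, 22 lay above and 33 below, and the share of all tested genes under that scaling is not given here.

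Among members with described roles in transcription and chromatin, 13 of 15 estimates (86.7%) lay above 0, beside 48.4% of all tested genes. Of the 15, 2 rose, none fell and 13 did not pass (13.3% called, beside 1.89% of all tested genes). The median log2 fold change was 0.12, beside −0.0073 over all tested genes, and 9 had all VT01454 libraries above all vehicle libraries, where 11.3% of all tested genes did. The role list was chosen with earlier results of these data known, so these shares describe the listed genes and are no evidence about the role. Estimates also lay higher in members of higher CPM, and the part of level in this count was not tested. ZNF703, the paralog of ZNF503 and a breast cancer oncogene, had 264, 275 and 282 CPM in VT01454 libraries, against 247, 239.8 and 192 CPM in vehicle libraries. Its groups did not overlap, and the difference of 0.28 ± 0.083 (log2, SE) did not pass (edgeR adjusted p = 0.138). It passed with the GC and length offsets, with no count filter and without vehicle library 3 (adjusted p = 4.4e-04, 0.00158 and 0.0422), and its log2 fold change without vehicle library 3 was 0.17. ZNF148, which binds GC-rich promoters, stood at 0.25 ± 0.080, and ZNF143, an activator bound at many promoters, at 0.21 ± 0.075 (edgeR adjusted p = 0.170 and 0.211). ZNF609, which acts with the cohesin loader and Integrator, stood at 0.21 ± 0.083. The other 8 lay between −0.07 for ZNF462 and 0.12 for ZNF292, with ZNF687, ZNF281, ZNF24, ZNF592, ZNF335 and ZNF827 between, all with 95% intervals that include 0. ZNF410 and ZNF532 were below 10 CPM.

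None of the 4 listed KRAB repressors that were members passed the test. ZNF274, which recruits SETDB1 to zinc finger genes, stood at −0.15 ± 0.075, ZNF91, which represses SVA retrotransposons, at −0.14 ± 0.086, ZNF445, which guards imprinted regions, at −0.11 ± 0.089, and ZNF202 at 0.093 ± 0.077 (log2 fold change and SE, edgeR adjusted p = 0.388, 0.490, 0.595 and 0.616). Of these estimates 3 were below 0, and each 95% interval includes 0. ZNF93, which represses LINE-1 elements, was below 10 CPM.

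None of the 8 members with roles in RNA, ribosomes and protein modification passed either. Besides ZNF622, the estimates ran from −0.073 for the double-stranded RNA binding ZNF346 to 0.15 for ZNF638, which takes part in silencing of unintegrated retroviral DNA. ZNF598, the ubiquitin ligase that marks collided ribosomes, averaged 160.3 ± 3.44 CPM in VT01454 libraries and 160.1 ± 9.58 CPM in vehicle libraries (SD, n = 3 each), with a 95% interval of −0.13 to 0.13 on the log2 scale. ZNF207, a spindle protein that binds BUB3, had 226.1, 225.8 and 225.6 CPM in VT01454 libraries, against 224.7, 227 and 221.1 CPM in vehicle libraries, and its interval was −0.10 to 0.12. ZNF326, ZNF106 and ZNF451, a SUMO ligase, stood at 0.081, 0.078 and 0.076. ZNF593 was below 10 CPM.

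**Figure D3:**
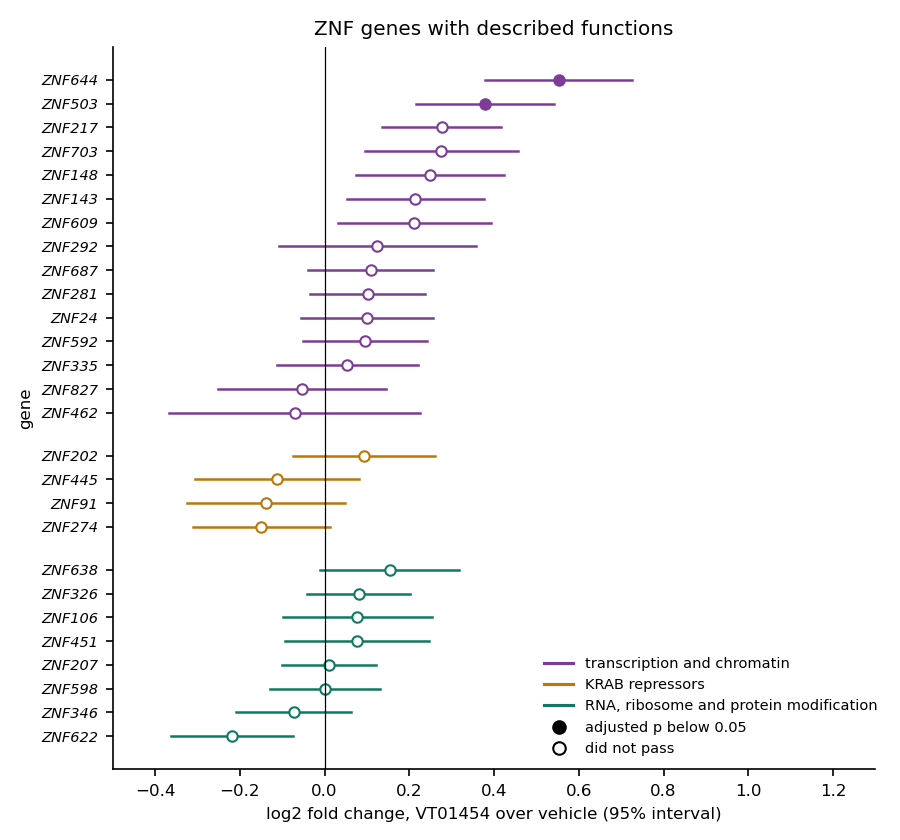
Log2 fold change of VT01454 over vehicle (horizontal axis) with 95% intervals for 27 ZNF genes in 3 role groups; filled points passed the test. Filled points are ZNF644 at 0.55 and ZNF503 at 0.38, and the lowest point is ZNF622 at −0.22.

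None of the 5 members with the most counts passed the test in edgeR, with 1, ZNF703, at an unadjusted p below 0.05 and none called by DESeq2. By mean CPM these were ZNF664, ZNF146, ZNF703, ZNF207 and ZNF24, and per kilobase of exon the level was 55.7, 63.5, 74.5, 14.2 and 19.6 CPM, against a median of 4.25 CPM per kilobase over the members. ZNF664 had 354, 360.2 and 361 CPM in VT01454 libraries, against 343, 326 and 376 CPM in vehicle libraries, and the groups overlapped (log2 0.042 ± 0.060, edgeR adjusted p = 0.783). ZNF146, a protein made up almost wholly of fingers, had 275, 272 and 272 CPM in VT01454 libraries, against 246, 246 and 269 CPM in vehicle libraries, which did not overlap, a difference of 0.11 ± 0.056 that did not pass (edgeR adjusted p = 0.415). ZNF24 stood at 0.099 ± 0.072, and ZNF703, described above, at 0.28 ± 0.083.

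The members were next set beside other genes of similar CPM. Between 10 and 20 CPM, 2 of 99 members passed (2.02%) with a median log2 fold change of −0.048, beside 2.18% of 1557 other genes and −0.033. Between 20 and 50 CPM, 4 of 113 members passed (3.54%) with a median of −0.0017, beside 3.42% of 2864 and 6.2e-04. Between 50 and 100 CPM none of 34 members passed in edgeR, with 6 at an unadjusted p below 0.05 and a median of 0.069, beside 2.79% of 2258 and 0.015. Between 100 and 400 CPM 1 of 12 members passed, all 12 estimates lay above 0 and the median was 0.079, beside 2.03% of 2073, 60.2% above 0 and a median of 0.027. Across the 258 members the log2 fold change had a Spearman rho of 0.28 and a Pearson r of 0.23 with mean CPM, and in the 9133 other genes 0.14 and 0.026; these points share the same 6 libraries. With the number of fingers rho was −0.034.

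Members with and without the KRAB pattern lay slightly apart. With the pattern 2 rose and 2 fell of 153 (2.61% called), the median log2 fold change was −0.021 and 66 estimates (43.1%) lay above 0. Without it 3 rose and none fell of 105 (2.86%, beside 1.89% of all tested genes), the median was 0.041 and 64 (61.0%) lay above 0. Non-overlapping groups were 10 above and 18 below vehicle with the pattern (6.54% and 11.8%), and 20 above and 9 below without it (19.05% and 8.57%), beside 11.3% and 9.84% of all tested genes. The difference of the 2 medians stayed between 0.043 and 0.083 over the main fit and 13 alternatives, and it was not tested. The KRAB median was above 0, at 0.021, without vehicle library 3. Level moved with it: the KRAB group had a median of 20.7 CPM and the other group 34.6 CPM. Between 10 and 20 CPM the median log2 fold changes were −0.039 over 74 KRAB members and −0.056 over 25 others. Between 20 and 50 CPM they were −0.015 over 71 and 0.028 over 42, and between 50 and 400 CPM 0.050 over 8 and 0.079 over 38.

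**Figure D4:**
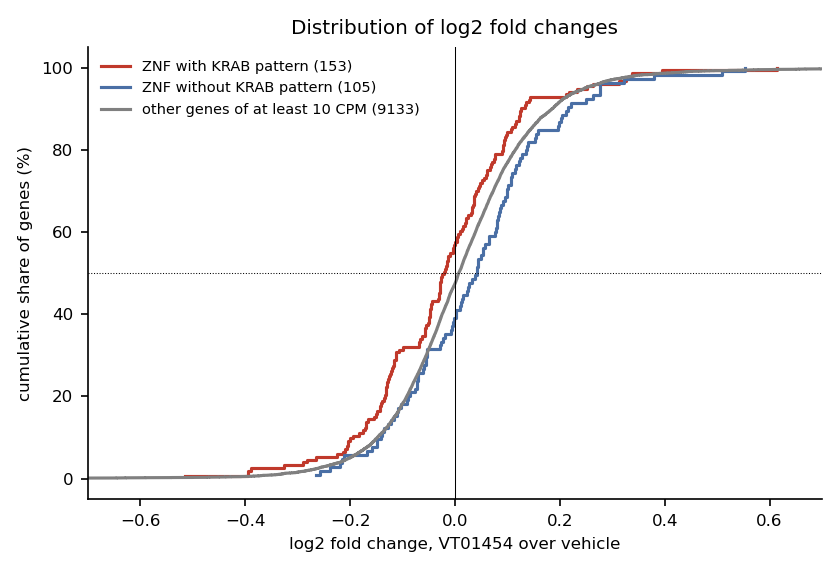
Cumulative share of genes (vertical axis, percent) by log2 fold change of VT01454 over vehicle (horizontal axis) for ZNF genes with (153) and without (105) the KRAB pattern and for the 9133 other genes with at least 10 CPM. The medians are −0.021, 0.041 and 0.0070, and the 3 curves lie close together.

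The members' median moved between vehicle libraries, most of all in the KRAB group. The members took 0.941%, 0.960% and 0.966% of all counts in VT01454 libraries 1 to 3, against 0.951%, 0.893% and 0.982% in vehicle libraries 1 to 3. Relative to each gene's own mean over the 6 libraries, on the log2(CPM + 0.5) scale, the members' median stood at −0.0022, 0.011 and 0.023 in VT01454 libraries, against 0.0071, −0.076 and 0.077 in vehicle libraries. The other genes with at least 10 CPM had medians from −0.0071 to 0.013 in all 6. Vehicle library 3 was the highest of the 6 in 104 members (40.3%), beside 19.7% of the other genes, and vehicle library 2 was the lowest in 108 (41.9%), beside 32.9%. In vehicle library 3 the median was 0.11 in the KRAB group and 0.0081 in the other members. In vehicle library 2 it was −0.087 in the KRAB group and −0.044 in the other members. Within groups the median SD was 4.12% of the mean in VT01454 libraries and 9.22% in vehicle libraries, beside 3.11% and 7.52% in the other genes, and 220 of 258 members had the larger SD in vehicle.

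**Figure D5:**
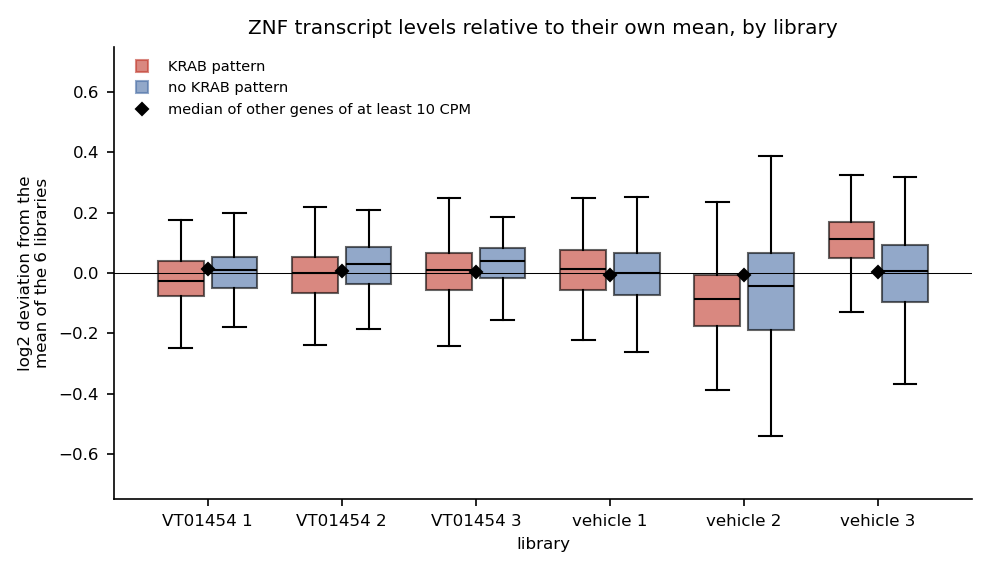
Log2 deviation of each ZNF gene from its own mean over the 6 libraries (vertical axis) by library, with boxes for the quartiles, whiskers to 1.5 times the box, and diamonds for the median of the other genes. The VT01454 boxes are centred near 0, while the KRAB box is at −0.087 in vehicle 2 and at 0.11 in vehicle 3.

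GC content and length moved with these deviations. Across the members the deviation had a Spearman rho with GC content of −0.064, −0.12 and −0.068 in VT01454 libraries, against 0.38, 0.35 and −0.49 in vehicle libraries; across the other genes it was −0.19, −0.32 and −0.33, against 0.58, 0.37 and −0.48. Their part in the results was not tested beyond the fit with offsets for GC content and exonic length, in which 12 members rose and 9 fell with a median of −0.034, beside 4.39% of all tested genes called. All 7 changed members named above were among those 21. Without vehicle library 2 there were 7 higher and 4 lower members (where 2.60% of all tested genes were called). Without vehicle library 3 there were 22 and 4 (where 11.4% were called), and without vehicle library 1 there were none in edgeR (where 0.584% were called).

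Transcripts of the silencing machinery that KRAB proteins recruit were examined next. Of 38 listed corepressor and H3K9 silencing genes 36 were tested and none passed in edgeR. DESeq2 called 1, MORC3, where it called 3.54% of the 11826 genes with a DESeq2 adjusted p. An unadjusted p below 0.05 was found for 4 (11.1%, beside 14.4% of all tested genes), with MORC3, TASOR and SMARCAD1 higher at 0.30, 0.24 and 0.17 and SUV39H2 lower at −0.20. The median log2 fold change was 0.029 and 25 estimates (69.4%) lay above 0, beside −0.0073 and 48.4% of all tested genes. In the other genes with at least 10 CPM these were 0.0070 and 52.6%, and between 100 and 400 CPM 0.027 and 60.2%. Many of the listed genes had high CPM, and the part of level was not tested. TRIM28 averaged 985 ± 14.4 CPM in VT01454 libraries and 1003 ± 74.5 CPM in vehicle libraries (SD, n = 3 each), a difference of −0.026 ± 0.059 (edgeR adjusted p = 0.866). SETDB1 averaged 55.1 ± 0.262 CPM in VT01454 libraries and 52.5 ± 3.37 CPM in vehicle libraries (0.068 ± 0.067, edgeR adjusted p = 0.678). The HP1 genes CBX1, CBX3 and CBX5 stood at 0.023, 0.016 and 0.010 with adjusted p from 0.869 to 0.969. MORC3, a chromatin ATPase that acts in H3K9 silencing, averaged 38.4 ± 2.03 CPM in VT01454 libraries and 31.04 ± 1.87 CPM in vehicle libraries (0.30 ± 0.075, edgeR adjusted p = 0.0666, DESeq2 adjusted p = 0.0277). Without vehicle library 3, 6 of the genes were higher, where 11.4% of all tested genes were called.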

How the data were processed

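Each sample's table, as deposited by the authors, holds unnormalised counts of reads for Ensembl gene IDs. The submitters' processing notes list hg38 with HISAT2 (2.2.1) and HTSeq (0.9.1), while the sources used here do not state the annotation or strand setting. Symbols were matched to 60357 of 60676 IDs, and GENCODE 29 (58503 IDs, same build, 1-based) gave positions, length, GC content and translated coding sequences, since no RefSeq protein table was at hand. Counts were fitted with edgeR 4.0.16 in R 4.3.3 (filterByExpr, TMM, robust quasi-likelihood F-test, two-sided, VT01454 over vehicle), adjusted over 15577 genes; SE is the log2 fold change over the square root of F. The members and lists were chosen with earlier results of these data known. Genes named are those called, with the smallest p filling each direction to 5, the 5 highest in CPM, the 3 either side of the threshold, 3 role lists, and TRIM28, SETDB1, HP1 genes, with MORC3 as the one DESeq2 call. ZNF711, ZNF184, TASOR, SMARCAD1, SUV39H2, ZNF417, ZNF320, ZNF468, the promoter examples and the ZBTB and ZFP genes were named after their values were seen. KRAB patterns and promoter motifs were also set after the data were seen. Alternatives were DESeq2 1.42.0, its size factors, library size alone, other filters and thresholds, a replicate block, GC and length offsets, and leaving out each library. The fit was also run on simulated data with the same spread in both groups and no GC or length trends. These libraries differ in both respects, so that run cannot show how the fit behaves on them.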

Additional observations from a re-analysis of the deposited data

How the results depend on the processing

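Of 7 changed members, the count moved to 21 with GC and length offsets, 16 with no count filter, 2 at an adjusted p below 0.01 and 12 at one below 0.1. It ran from 0 (without vehicle library 1) to 26 (without vehicle library 3) when 1 library was left out. The share of all tested genes called moved too, from 1.89% to 4.39% with the offsets and 2.29% with no filter. It was 0.584% without vehicle library 1 and 11.4% without vehicle library 3. For DESeq2 the share was 3.54% of the genes with an adjusted p. At an adjusted p below 0.01 or 0.1 the share of all tested genes is not given here. The subset counts below stand beside the same shares. The KRAB subset moved from 4 to 12 with the offsets, 9 with no filter and 2 with members of at least 20 CPM, with 0 to 11 over the left-out libraries. Non-overlapping members, 57 in all, ranged from 67 to 120 with 1 library fewer (99 without vehicle library 2 and 120 without vehicle library 3). The share of all tested genes with 1 library fewer is not given here, and fewer libraries by themselves make non-overlap more frequent. Genes of the related symbols (ZNF below 10 CPM, ZBTB, ZSCAN, ZKSCAN and ZFP, with the CCCH gene ZFP36 among them) moved from 6 to 12 with the offsets, and ranged from 1 to 14; corepressor genes moved from 0 to 1 with DESeq2, 1 with the offsets and 2 with no filter, and ranged from 0 to 6. Fewer samples or more tested genes are part of some of these settings; otherwise the cause was not tested. The 7 changed members kept their direction in all 13 refits. Small estimates changed sign: with library size alone CBX1, CBX3, CBX5, ZNF207 and ZNF598 stood at −1.5e-04, −0.0072, −0.014, −0.013 and −0.022; with the offsets CBX3, CBX5, TRIM28, ZNF207, ZNF326 and ZNF451 at −0.023, −0.081, 0.030, −0.12, −0.035 and −0.039; without vehicle library 1 CBX3 and CBX5 at −0.037 and −6.6e-04; without vehicle library 2 CBX5, TRIM28, ZNF106, ZNF335 and ZNF664 at −0.092, 0.020, −0.015, −0.013 and −0.0021; without vehicle library 3 ZNF207, ZNF462, ZNF559 and ZNF598 at −0.0019, 0.095, 0.0062 and −0.047; and without VT01454 library 1 ZNF598 at −0.013. At the other end of the left-out libraries CBX3, CBX5, TRIM28, ZNF106, ZNF335, ZNF462, ZNF559, ZNF598 and ZNF664 reached 0.068, 0.13, −0.086, 0.16, 0.094, −0.23, −0.11, 0.040 and 0.099. Whether same-numbered samples were paired is not labelled. Deviations from the group mean had correlations of −0.13, −0.13 and 0.044 between same-numbered libraries, which cannot settle it. The replicate block gave 7 changed members, all 7 shared with the fit without it, and 339 genes in all against 294.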

Other observations

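Of the 219 ZNF genes below 10 CPM, 164 were tested. ZNF552, a gene of chromosome 19, fell to 4.67 ± 0.776 CPM in VT01454 libraries, against 7.17 ± 0.302 CPM in vehicle libraries (SD, n = 3 each; log2 −0.62 ± 0.14, edgeR adjusted p = 0.0489), and none rose in edgeR (0.610% called, beside 1.89% of all tested genes; 27 had an unadjusted p below 0.05). Their median was −0.066 with 31.7% of estimates above 0, beside 48.4% of all tested genes, and 31 had non-overlapping groups below vehicle and 9 above (18.9% and 5.49%, beside 9.84% and 11.3% of all tested genes). The low-count genes carry larger errors (a median SE of 0.16, beside 0.089 for the expressed members).

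Of 32 tested ZBTB genes, whose products pair fingers with a BTB domain, 3 rose and 1 fell (12.5%, beside 1.89% of all tested genes). ZBTB10 at 126 ± 2.75 CPM in VT01454 libraries and 95.2 ± 7.03 CPM in vehicle libraries (1.33-fold, edgeR adjusted p = 0.00503), ZBTB11 (1.26-fold, edgeR adjusted p = 0.0211) and ZBTB21 (1.37-fold, edgeR adjusted p = 0.032) rose, and ZBTB26 fell 1.52-fold (edgeR adjusted p = 0.00707). None of 15 ZSCAN and 6 ZKSCAN genes passed in edgeR, where 2 and 3 had an unadjusted p below 0.05. Of 15 ZFP genes 1 passed: ZFP36, which encodes a CCCH protein of mRNA decay and no C2H2 array, rose 2.44-fold, to 6.42 ± 0.946 CPM in VT01454 libraries, against 2.64 ± 0.115 CPM in vehicle libraries (edgeR adjusted p = 7.8e-04).

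Along chromosome 19, in windows chosen after the values were seen, the 31 members between 55 and 59 Mb had 23 estimates below 0 and a median of −0.048, with 6 non-overlapping groups below vehicle and 2 above (9.84% and 11.3% of all tested genes); the 28 other expressed genes there had a median of −0.060. The 19 members between 30 and 40 Mb had 12 above 0 and a median of 0.044, beside −0.046 for 62 other genes. The 12 members between 42 and 46 Mb had 8 below 0 and a median of −0.13, beside −0.023 for 33 other genes, and none had non-overlapping groups. In the other 3 windows the members' medians were −0.016, 0.021 and −0.028, beside −0.044, −0.053 and −0.040 for other genes.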
